A study of Homo sapiens with 24 samples.

Results

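The genes described here are 51 genes of protein folding, listed by name for their role: 29 genes of the endoplasmic reticulum (ER), most of them targets or sensors of the unfolded protein response, and 22 chaperone and heat shock genes of the cytosol and mitochondria. On the array, 49 of the 51 had a probe that was named for that gene alone, and 46 had a probe that reached a detection p-value under 0.05 on all 3 arrays of 1 group or more, 25 of the ER and 21 of the cytosol and mitochondria, out of 12109 genes measured in this way. PDIA3, SEL1L and ERN1 had named probes but none that passed, and HERPUD1 and AHSA1 had no named probe. Their levels were measured in HCC1954 and JIMT1, breast cancer cell lines that the study describes as insensitive to BYL719.

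Each line received for 4 hr the combination of BYL719 (1 µM), a PI3Kα inhibitor, and GSK2334470 (1 µM), a PDK1 inhibitor, or BYL719 (1 µM) alone, or GSK2334470 (1 µM) alone, or DMSO (0.1%). There were 3 arrays in each of the 8 groups, 24 in all, described by the study as biological replicates, and total RNA of the bulk culture was hybridized to Illumina bead arrays. In such RNA, fewer cells of a type and less RNA per cell cannot be told apart. The median raw intensity of an array was 48.5 to 81.9, 41% to 45.2% of its probes were detected, and the correlation within groups was 0.989 to 0.9924. All 7 epithelial and HER2 markers examined were detected on all 24 arrays, and PTPRC, CD3E and PDGFRB, which define leukocytes, T cells and pericytes or fibroblasts, were detected on 0 arrays. Other markers of these and of endothelial cells were listed as detected on 1 to 24 arrays, with KDR and LUM on 1 each and PECAM1 and CD68 on 24. Under the combination, 1 of the 7 epithelial and HER2 markers was higher in HCC1954 and 3 in JIMT1, where 6.96% and 12.5% of all genes were higher. GRB7 was at 1.11 and 2.46 on the log2 scale and ERBB2 at 0.32 in JIMT1. Of the 2 measured immune markers CD14 was lower in HCC1954 (-0.94), and 0 of the 3 endothelial and 0 of the 1 fibroblast markers passed in either line (limma). With GSK2334470 alone in JIMT1, GRB7 was higher (0.96, adjusted p = 3.7e-05 from limma) and PECAM1 lower (-0.59, adjusted p = 0.0049). The part of the markers in the results was not tested.

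Proteins that enter the ER are folded by BiP (HSPA5), GRP94, lectin chaperones and disulfide isomerases. When unfolded proteins accumulate, the sensors IRE1 (ERN1), PERK (EIF2AK3) and ATF6 raise chaperone and ER-associated degradation genes through XBP1, ATF6 and ATF4, while PERK slows translation by phosphorylating eIF2α, which PPP1R15A reverses. In the cytosol, HSP70 and HSP90 work with J proteins and co-chaperones, and HSF1 raises their genes when proteins misfold. Rapidly growing cancer cells depend on both systems, and mTORC1, which lies downstream of PI3K and PDK1, sets the rate of protein synthesis that feeds them.

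The list was divided by the role of each gene, and some of its promoters carry known stress response elements, so those windows are shown first. RefSeq promoter windows (GRCh38.p14, 250 bases before to 50 after the annotated start) were found for 46 of the 51 genes, 26 of the ER and 20 of the cytosol and mitochondria, and a gene can have more than 1 window (35116 windows for 27305 genes in all). The ER stress element, CCAAT and CCACG with 9 bases of any kind between them on either strand, was present in a window of 7 of the 26 ER genes (CALR, CANX, CRELD2, HSP90B1, HSPA5, PDIA6 and XBP1) and of 0 of the 20 cytosolic and mitochondrial genes, against 0.0916% of all genes and 0.0769% of all windows. ERSE-II, ATTGG and CCACG with 1 base between them on either strand, was present in HERPUD1, HYOU1 and SDF2L1 (0.0696% of all genes and 0.0541% of all windows). A heat shock element of 3 alternating units, GAA, TTC and GAA with 2 bases between units on either strand, was present in 7 cytosolic or mitochondrial genes (CHORDC1, DNAJA1, DNAJB6, HSP90AA1, HSP90AB1, HSPA8 and HSPD1) and in 0 ER genes, against 0.608% of all genes and 0.49% of all windows. A match is a description of the letters and not a measured site, and most genes of either arm carried none of these elements. Since most ER genes were listed as targets or sensors of the unfolded protein response, their share against all genes is no test. In the ER windows below, with 10 bases on each side, capitals mark the CCAAT and CCACG blocks or their reverse complements, and each is read 5′ to 3′ on the strand of its gene.
HSPA5 (chr9:125241381-125241419, minus strand): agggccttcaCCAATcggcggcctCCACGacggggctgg
HSP90B1 (chr12:103930206-103930244, plus strand): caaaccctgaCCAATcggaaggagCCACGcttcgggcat
XBP1 (chr22:28800593-28800631, minus strand): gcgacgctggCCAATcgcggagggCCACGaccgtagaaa
PDIA6 (chr2:10812843-10812881, minus strand): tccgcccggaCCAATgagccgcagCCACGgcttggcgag
CRELD2 (chr22:49918544-49918582, plus strand): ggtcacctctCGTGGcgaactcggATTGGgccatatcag
HYOU1 (ERSE-II, chr11:119057264-119057294, minus strand): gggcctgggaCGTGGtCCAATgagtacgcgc
SDF2L1 (ERSE-II, chr22:21642104-21642134, plus strand): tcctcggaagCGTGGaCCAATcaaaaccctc

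In the windows of cytosolic chaperone genes, capitals mark the GAA and TTC units of the heat shock element. HSPA8 carried it at -230 to -218 and again, on the reverse strand, at -55 to -43 from its start. The DNAJB6 and HSP90AA1 windows are shown because their genes did not move with those of HSPA8 and CHORDC1.
HSPA8, distal (chr11:123062344-123062376, minus strand): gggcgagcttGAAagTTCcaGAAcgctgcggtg
HSPA8, proximal (chr11:123062169-123062201, minus strand): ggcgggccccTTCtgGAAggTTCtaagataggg
CHORDC1 (chr11:90223087-90223119, minus strand): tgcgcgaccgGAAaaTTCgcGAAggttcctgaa
DNAJB6 (chr7:157336863-157336895, plus strand): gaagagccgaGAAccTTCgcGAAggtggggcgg
HSP90AA1 (chr14:102087110-102087142, minus strand): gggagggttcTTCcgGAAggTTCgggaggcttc
The FOXO letters GTAAACA were present on either strand in HSP90AA1 alone among the members (4.19% of all genes and 3.42% of all windows). The letters TGACGTGG of the unfolded protein response element were present in HYOU1 alone (0.927% of all genes and 0.729% of all windows). The palindrome TGACGTCA, the cyclic AMP response element, was present in the windows of PPP1R15A and HSP90AB1 (2.25% of all genes and 1.85% of all windows), and in that of PPP1R15A it is marked in capitals.
PPP1R15A (chr19:48872353-48872380, plus strand): cctctcttcgTGACGTCAgcacgccggg

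Under the combination, most members that passed were lower than DMSO in each line, and HSPA8, HSPA1A, CHORDC1 and DNAJB1 of the cytosol were among them in both. In HCC1954, 10 of the 46 measured genes passed the test against DMSO (adjusted p under 0.05 in a limma fit over all 12109 genes), 3 higher and 7 lower, where 15.3% of all genes passed (6.96% higher and 8.3% lower). In JIMT1, 14 passed, 5 higher and 9 lower, where 21.3% of all genes passed (12.5% higher and 8.84% lower). These were 21.7% and 30.4% of the measured members, and whether they exceed the shares of all genes was not tested. In HCC1954, 3 of the 25 ER genes (12%, 2 higher and 1 lower) and 7 of the 21 cytosolic and mitochondrial genes (33.3%, 1 higher and 6 lower) passed. In JIMT1, 8 of the ER genes (32%, 5 higher and 3 lower) and 6 of the cytosolic and mitochondrial genes (28.6%, all lower) passed. The median log2 fold change of the 21 cytosolic and mitochondrial genes was -0.12 in HCC1954 and -0.25 in JIMT1, against 0.03 and 0.00 for the 25 ER genes and 0.00 and 0.02 for all genes, and the 3 mitochondrial members had medians of -0.05 and 0.02. The ER genes were split, with 13 above and 12 below 0 in each line, and the difference between the sets was not tested. All comparisons with DMSO in a line share that line's 3 DMSO arrays. When arrays were scaled by their median in place of quantiles, the median of all genes in HCC1954 moved to -0.12, that of the cytosolic genes to -0.25 and that of the ER genes to -0.13, and the cytosolic median minus that of all genes was -0.12 either way.

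**Figure D1:**
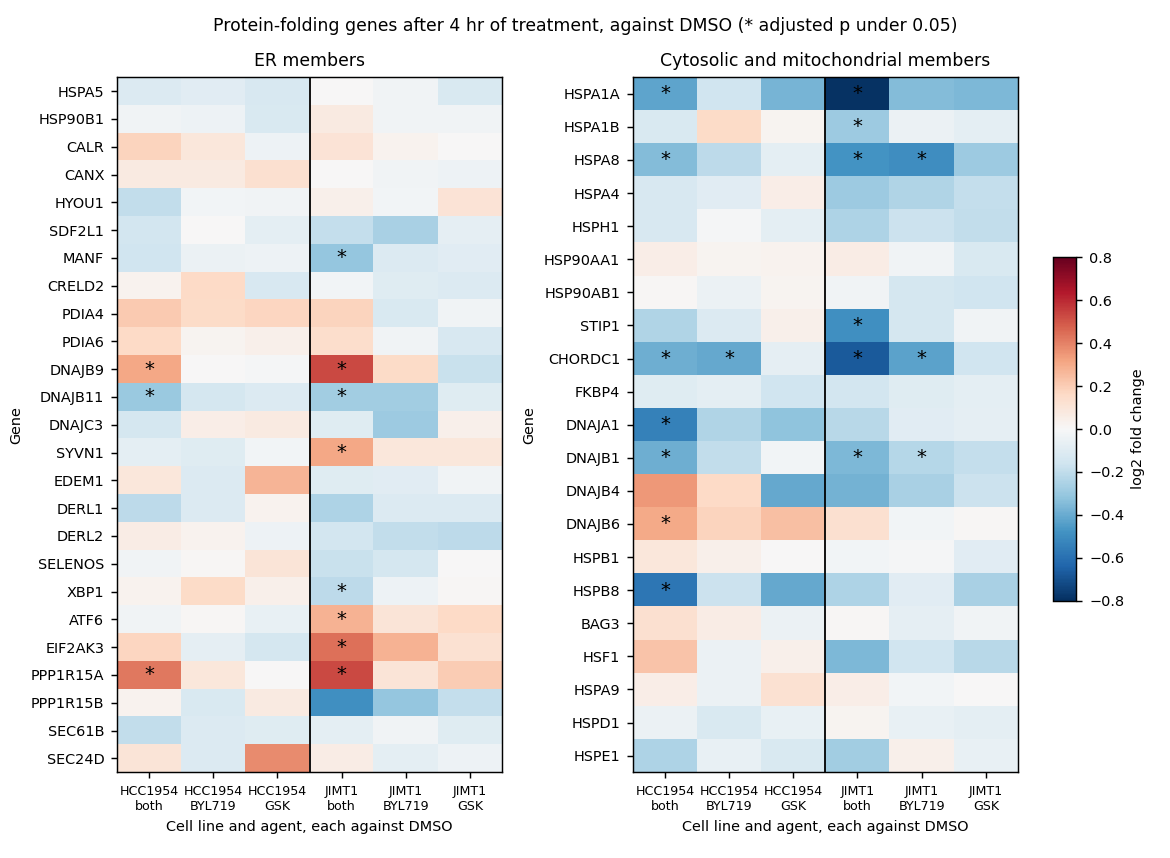
Log2 fold change against DMSO (colour, red higher and blue lower) of the 25 ER genes on the left and the 21 cytosolic and mitochondrial genes on the right, in HCC1954 and JIMT1 after both agents, BYL719 or GSK2334470 (GSK), with an asterisk where the adjusted p was under 0.05. HSPA8 and CHORDC1 are blue with an asterisk under both agents in both lines, and HSPA5 and HSP90B1 stay pale in every column.

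The classical ER chaperones gave no call under the combination in HCC1954 and 1 in JIMT1, that of MANF, where 15.3% and 21.3% of all genes passed. HSPA5, which encodes BiP, the HSP70 of the ER, had log2 intensities of 8.13, 8.28 and 8.20 with the combination, 8.21, 8.25 and 8.20 with BYL719, 8.15, 8.38 and 8.02 with GSK2334470 and 8.23, 8.36 and 8.35 with DMSO in HCC1954. In JIMT1 HSPA5 read 9.48, 9.29 and 9.62 with the combination, 9.37, 9.53 and 9.39 with BYL719, 9.46, 9.24 and 9.32 with GSK2334470 and 9.39, 9.49 and 9.50 with DMSO. The groups overlapped in both lines. The difference between combination and DMSO was -0.11 in HCC1954 (95% interval -0.31 to 0.09, adjusted p = 0.5 from limma) and 0.00 in JIMT1 (-0.20 to 0.20, adjusted p = 0.99). HSP90B1, which encodes GRP94, the HSP90 of the ER, had log2 intensities of 12.95, 13.06 and 13.05 with the combination, 13.07, 12.98 and 12.99 with BYL719, 12.88, 12.99 and 12.92 with GSK2334470 and 13.01, 13.09 and 13.07 with DMSO in HCC1954. In JIMT1 it read 13.24, 13.32 and 13.37 with the combination, 13.24, 13.18 and 13.20 with BYL719, 13.26, 13.18 and 13.18 with GSK2334470 and 13.16, 13.26 and 13.29 with DMSO. Its difference under the combination was -0.03 in HCC1954 (95% interval -0.17 to 0.10) and 0.07 in JIMT1 (-0.07 to 0.21). The lectin chaperones CALR and CANX, the nucleotide exchange factor HYOU1, and SDF2L1 and CRELD2 had log2 fold changes of -0.20 to 0.18 over both lines, and the disulfide isomerases PDIA4 and PDIA6 of 0.14 to 0.21, with no call in either group.

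MANF, a secreted ER protein that binds BiP, was the exception among the chaperones. In HCC1954 its log2 intensity was 11.99, 11.98 and 11.90 with the combination, 12.12, 11.93 and 12.16 with BYL719, 12.08, 12 and 12.16 with GSK2334470 and 12.10, 12.02 and 12.23 with DMSO. The combination lay below DMSO, by a difference of -0.16 that did not pass (adjusted p = 0.2). In JIMT1 MANF read 12, 12.07 and 12.21 with the combination, 12.35, 12.32 and 12.24 with BYL719, 12.27, 12.38 and 12.29 with GSK2334470 and 12.45, 12.40 and 12.37 with DMSO. There the combination arrays lay below those of every other group, and MANF fell by 0.31 (SE 0.08, adjusted p = 0.008 from limma).

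Of the 3 ER J proteins among the members, DNAJB9 was called higher and DNAJB11, near the threshold, lower in both lines, and DNAJC3 passed in neither. DNAJB9 (ERdj4), a J protein that binds IRE1 and is raised by XBP1, had log2 intensities of 9.40, 9.20 and 9.13 with the combination, 8.89, 8.88 and 9.02 with BYL719, 9, 8.84 and 8.94 with GSK2334470 and 8.78, 9.06 and 8.96 with DMSO in HCC1954. In JIMT1 the DNAJB9 values were 9.38, 9.30 and 9.12 with the combination, 8.87, 8.86 and 8.92 with BYL719, 8.64, 8.62 and 8.43 with GSK2334470 and 8.80, 8.77 and 8.65 with DMSO. The combination arrays were the highest of their line in both lines. DNAJB9 rose by 0.31 in HCC1954 (SE 0.09, adjusted p = 0.03 from limma) and by 0.53 in JIMT1 (SE 0.09, adjusted p = 0.00038). DNAJB11 (ERdj3), a BiP co-chaperone, had 12.19, 12.51 and 12.17 with the combination, 12.35, 12.57 and 12.40 with BYL719, 12.38, 12.53 and 12.51 with GSK2334470 and 12.49, 12.76 and 12.50 with DMSO in HCC1954. In JIMT1 the DNAJB11 values were 11.98, 11.90 and 12 with the combination, 11.88, 12.04 and 11.94 with BYL719, 12.25, 12.08 and 12.08 with GSK2334470 and 12.19, 12.29 and 12.24 with DMSO. Here the combination overlapped DMSO in HCC1954, where replicate 2 was the highest array of each group, and lay below it on all arrays in JIMT1. DNAJB11 fell by 0.30 in HCC1954 (SE 0.10) and by 0.28 in JIMT1 (SE 0.10), both close to the threshold (adjusted p = 0.048 in each line). DNAJC3 (p58IPK), an inhibitor of PERK, had log2 fold changes of -0.14 and -0.10 that did not pass. The DNAJB9 call in HCC1954 was lost without combination replicate 1 (0.23), DMSO replicate 1 (0.23) or DMSO replicate 3 (0.32), and with median scaling (0.13). The DNAJB11 call was lost in HCC1954 without any 1 array of those groups but combination replicate 2 (-0.34 to -0.21) and in JIMT1 without any 1 of the 6 arrays (-0.31 to -0.25).

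PPP1R15A (GADD34), the stress-induced subunit that directs protein phosphatase 1 to eIF2α, rose with the smallest adjusted p of the ER genes in both lines. In HCC1954 its log2 intensity was 11.61, 11.71 and 11.77 with the combination, 11.40, 11.42 and 11.28 with BYL719, 11.24, 11.32 and 11.27 with GSK2334470 and 11.25, 11.21 and 11.37 with DMSO. In JIMT1 PPP1R15A read 10.85, 11.06 and 10.96 with the combination, 10.47, 10.57 and 10.56 with BYL719, 10.67, 10.61 and 10.61 with GSK2334470 and 10.40, 10.41 and 10.48 with DMSO. In both lines every combination array was above every array of the other 3 groups. Its mean was 11.70 ± 0.08 with the combination and 11.27 ± 0.08 with DMSO in HCC1954, and 10.96 ± 0.11 with the combination and 10.43 ± 0.05 with DMSO in JIMT1 (SD, n = 3 arrays each). PPP1R15A rose by 0.42 (SE 0.07, adjusted p = 0.00042 from limma) and by 0.53 (SE 0.07, adjusted p = 2.8e-05) in HCC1954 and JIMT1. With median scaling the HCC1954 value was 0.26 and did not pass. Its constitutive counterpart PPP1R15B was dim, with log2 fold changes of 0.03 in HCC1954 and -0.49 in JIMT1 (adjusted p = 0.087), where it was detected on 2 of 3 combination arrays. A dimmer PPP1R15B probe, detected on 14 of 24 arrays, also gave -0.49 in JIMT1 and passed among all kept probes (adjusted p = 0.043).

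**Figure D2:**
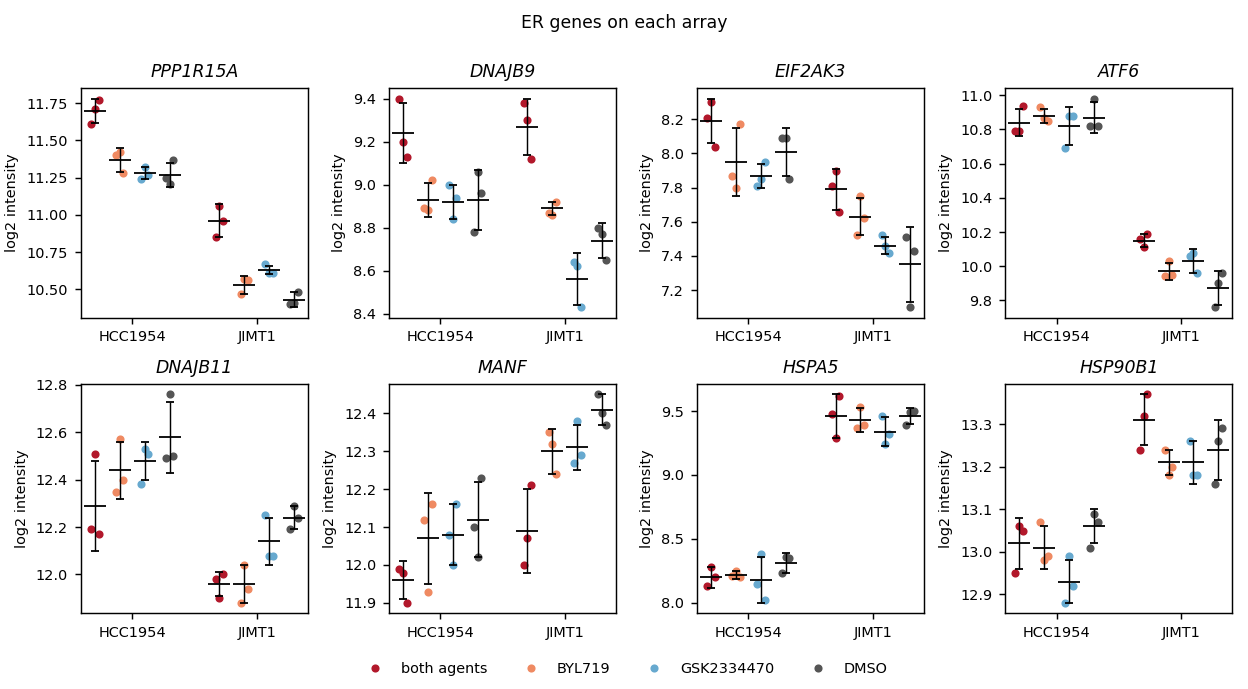
Log2 intensity on each array (points) of 8 ER genes, with the mean (line) and SD (bars) of the 3 arrays per group, in HCC1954 and JIMT1, for both agents, BYL719, GSK2334470 and DMSO. In both lines the points of PPP1R15A and DNAJB9 under both agents lie above the other 3 groups, while those of HSPA5 and HSP90B1 overlap DMSO.

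Of the stress sensors and XBP1, none passed in HCC1954 and all 3 that were measured passed in JIMT1, the sensors upward and XBP1 downward. Among all genes, 15.3% passed in HCC1954 and 21.3% in JIMT1 (12.5% higher and 8.84% lower). EIF2AK3, which encodes PERK, read 8.21, 8.30 and 8.04 with the combination, 7.87, 7.80 and 8.17 with BYL719, 7.81, 7.85 and 7.95 with GSK2334470 and 8.09, 8.09 and 7.85 with DMSO in HCC1954. The corresponding JIMT1 values of EIF2AK3 were 7.81, 7.90 and 7.66 with the combination, 7.52, 7.75 and 7.62 with BYL719, 7.52, 7.46 and 7.42 with GSK2334470 and 7.51, 7.10 and 7.43 with DMSO. Combination and DMSO overlapped in HCC1954 and were apart in JIMT1. EIF2AK3 had a difference of 0.17 in HCC1954 (adjusted p = 0.37 from limma) and rose by 0.44 in JIMT1 (SE 0.12, adjusted p = 0.0089). ATF6, a membrane-bound transcription factor released from the ER under stress, had log2 intensities of 10.79, 10.79 and 10.94 with the combination, 10.93, 10.87 and 10.85 with BYL719, 10.69, 10.88 and 10.88 with GSK2334470 and 10.82, 10.98 and 10.82 with DMSO in HCC1954, with all groups overlapping. In JIMT1 the ATF6 readings were 10.16, 10.11 and 10.19 with the combination, 9.94, 10.03 and 9.95 with BYL719, 10.06, 10.08 and 9.96 with GSK2334470 and 9.76, 9.90 and 9.96 with DMSO, and the combination arrays were the highest. ATF6 had a difference of -0.03 in HCC1954 and rose by 0.28 in JIMT1 (SE 0.08, adjusted p = 0.013). The EIF2AK3 call in JIMT1 was lost without DMSO replicate 2 (0.32), and that of ATF6 without DMSO replicate 1 (0.22).

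XBP1, the transcription factor that IRE1 activates by splicing its mRNA, had log2 intensities of 13.29, 13.32 and 13.31 with the combination, 13.47, 13.46 and 13.37 with BYL719, 13.31, 13.36 and 13.30 with GSK2334470 and 13.24, 13.33 and 13.28 with DMSO in HCC1954. In JIMT1 the XBP1 signal was 11.23, 11.37 and 11.15 with the combination, 11.48, 11.42 and 11.36 with BYL719, 11.51, 11.42 and 11.48 with GSK2334470 and 11.40, 11.46 and 11.52 with DMSO. XBP1 had a difference of 0.03 in HCC1954 and fell by 0.21 in JIMT1 (SE 0.07, adjusted p = 0.034 from limma), where the combination arrays were below DMSO. Its other probe, annotated to another transcript, gave -0.07 in JIMT1, and the call was lost without combination replicate 1 (-0.20), combination replicate 3 (-0.16), DMSO replicate 2 (-0.21) or DMSO replicate 3 (-0.18).

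Of the 5 measured genes of ER-associated degradation, which returns misfolded proteins to the cytosol for the proteasome, SYVN1 alone passed by its brightest probe, in JIMT1 (21.3% of all genes passed there). SYVN1 encodes HRD1, the ubiquitin ligase of this route, and read 10.31, 10.29 and 10.25 with the combination, 10.34, 10.13 and 10.33 with BYL719, 10.39, 10.39 and 10.26 with GSK2334470 and 10.30, 10.41 and 10.38 with DMSO in HCC1954. Its JIMT1 values were 10.08, 10.23 and 10.24 with the combination, 9.95, 10.04 and 9.90 with BYL719, 9.92, 9.98 and 10 with GSK2334470 and 9.83, 9.88 and 9.92 with DMSO. In HCC1954 the combination overlapped DMSO, and in JIMT1 it lay above all other groups. SYVN1 had a difference of -0.08 in HCC1954 and rose by 0.31 in JIMT1 (SE 0.07, adjusted p = 0.0052 from limma). The mannosidase-like lectin EDEM1, the channel proteins DERL1 and DERL2, and SELENOS had log2 fold changes of -0.25 to 0.09 that did not pass at their brightest probes, as did SEC61B of the translocon and SEC24D of the vesicle coat, at -0.20 to 0.10. SELENOS had -0.18 in JIMT1 by that probe, and another of its probes, detected on all 24 arrays, gave -0.38 there and passed among all kept probes (adjusted p = 0.0083).

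In the cytosol, 2 of the 5 genes of the HSP70 and HSP110 group fell in HCC1954 and 3 in JIMT1, where 8.3% and 8.84% of all genes fell. HSPA8, which encodes HSC70, the constitutive HSP70 that folds nascent chains, had log2 intensities of 13.07, 13.08 and 13.01 with the combination, 13.07, 13.18 and 13.31 with BYL719, 13.26, 13.34 and 13.37 with GSK2334470 and 13.33, 13.45 and 13.41 with DMSO in HCC1954. In JIMT1 HSPA8 had 13.47, 13.50 and 13.54 with the combination, 13.41, 13.48 and 13.59 with BYL719, 13.69, 13.69 and 13.71 with GSK2334470 and 13.91, 13.99 and 14.06 with DMSO. In JIMT1 the DMSO arrays were above all 9 treated arrays, with GSK2334470 between DMSO and the other 2 treatments. HSPA8 fell by 0.35 in HCC1954 (SE 0.07, adjusted p = 0.0022 from limma) and by 0.48 in JIMT1 (SE 0.07, adjusted p = 6.3e-05), and its other probe gave -0.40 and -0.62.

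HSPA1A, the stress-inducible HSP70, had log2 intensities of 11.72, 12.19 and 11.93 with the combination, 12.15, 12.17 and 12.28 with BYL719, 11.98, 11.98 and 12.03 with GSK2334470 and 12.45, 12.39 and 12.24 with DMSO in HCC1954. In JIMT1 HSPA1A had 12.49, 12.53 and 11.88 with the combination, 12.81, 12.79 and 12.64 with BYL719, 12.76, 12.65 and 12.80 with GSK2334470 and 13.07, 13.19 and 13.03 with DMSO. Combination arrays were spread more widely than those of the other groups, with replicate 3 low in JIMT1, and lay below DMSO in both lines. HSPA1A fell by 0.42 in HCC1954 (SE 0.13, adjusted p = 0.039 from limma) and by 0.79 in JIMT1 (SE 0.13, adjusted p = 0.00021), the largest fall among the members in JIMT1. HSPA1B encodes the same protein from a nearly identical copy, so the share of signal that belongs to each gene is uncertain. Its probe read 12.08, 12.19 and 12.17 with the combination, 12.29, 12.42 and 12.52 with BYL719, 12.46, 12.19 and 12.22 with GSK2334470 and 12.24, 12.34 and 12.23 with DMSO in HCC1954, a difference of -0.12 under the combination that did not pass. In JIMT1 HSPA1B had 12.53, 12.32 and 12.34 with the combination, 12.66, 12.53 and 12.72 with BYL719, 12.46, 12.67 and 12.68 with GSK2334470 and 12.63, 12.65 and 12.76 with DMSO, and fell by 0.29 (SE 0.09, adjusted p = 0.03). HSPA4 and HSPH1, the HSP110 exchange factors, had log2 fold changes of -0.29 to -0.13 that did not pass. The HSPA1A call in HCC1954 was lost without combination replicate 1 (-0.31) or 3 (-0.41) or DMSO replicate 1 (-0.38) or 2 (-0.40), and that of HSPA1B in JIMT1 without combination replicate 2 (-0.25) or 3 (-0.26) or DMSO replicate 2 (-0.30) or 3 (-0.25).

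**Figure D3:**
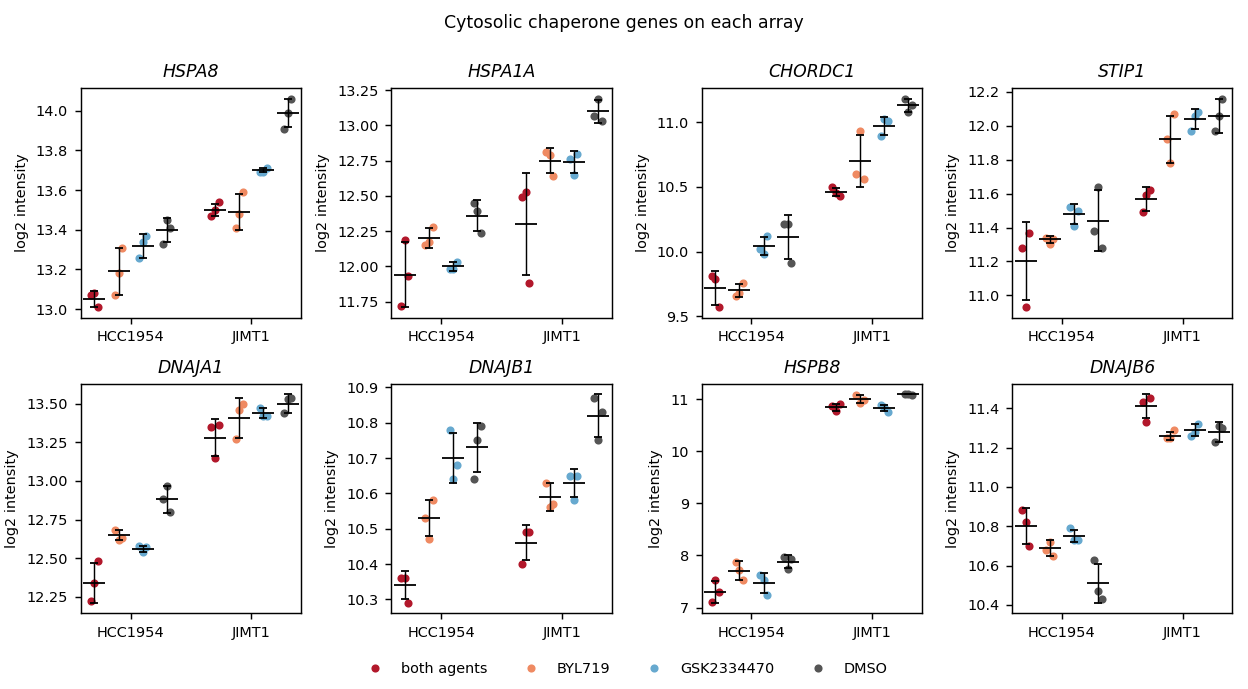
Log2 intensity on each array (points) of 8 cytosolic chaperone genes, with the mean (line) and SD (bars) of the 3 arrays per group, in HCC1954 and JIMT1, for both agents, BYL719, GSK2334470 and DMSO. HSPA8 in JIMT1 shows both agents (13.50 ± 0.03) and BYL719 (13.49 ± 0.09) at one level below DMSO (13.99 ± 0.07), and in both lines the 3 DNAJA1 points of the combination lie below the 3 of DMSO.

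In the HSP90 group the calls were in co-chaperones and not in the HSP90 genes themselves. HSP90AA1, the inducible HSP90, had log2 intensities of 14.63, 14.57 and 14.61 with the combination, 14.52, 14.59 and 14.61 with BYL719, 14.63, 14.65 and 14.49 with GSK2334470 and 14.60, 14.42 and 14.65 with DMSO in HCC1954. In JIMT1 HSP90AA1 had 14.24, 14.17 and 14.31 with the combination, 14.11, 14.24 and 14.10 with BYL719, 14.03, 13.98 and 14.19 with GSK2334470 and 14.15, 14.14 and 14.26 with DMSO. Its groups overlapped in both lines, at differences between combination and DMSO of 0.05 in HCC1954 (95% interval -0.12 to 0.21) and 0.06 in JIMT1 (-0.11 to 0.22), and those of HSP90AB1 were 0.01 and -0.03. CHORDC1, a co-chaperone of HSP90, read 9.81, 9.79 and 9.57 with the combination, 9.66, 9.68 and 9.76 with BYL719, 10.02, 9.98 and 10.12 with GSK2334470 and 10.21, 10.21 and 9.91 with DMSO in HCC1954. In JIMT1 CHORDC1 had 10.50, 10.45 and 10.43 with the combination, 10.60, 10.93 and 10.56 with BYL719, 10.89, 11.02 and 11.01 with GSK2334470 and 11.18, 11.08 and 11.13 with DMSO. Combination and BYL719 arrays lay below DMSO in both lines. CHORDC1 fell by 0.39 in HCC1954 (SE 0.10, adjusted p = 0.011 from limma) and by 0.67 in JIMT1 (SE 0.10, adjusted p = 5.8e-05), and a dimmer probe gave -0.41 and -0.72. The HCC1954 call was lost without combination replicate 3 (-0.31) or DMSO replicate 1 (-0.34).

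STIP1 (HOP), which passes clients from HSP70 to HSP90, had log2 intensities of 11.28, 10.93 and 11.37 with the combination, 11.34, 11.30 and 11.33 with BYL719, 11.52, 11.41 and 11.50 with GSK2334470 and 11.38, 11.64 and 11.28 with DMSO in HCC1954. In JIMT1 STIP1 had 11.49, 11.59 and 11.62 with the combination, 11.92, 11.78 and 12.07 with BYL719, 11.97, 12.06 and 12.08 with GSK2334470 and 11.97, 12.06 and 12.16 with DMSO. In HCC1954 the combination overlapped DMSO, and in JIMT1 it was below all other groups. STIP1 had a difference of -0.24 in HCC1954 (adjusted p = 0.15 from limma) and fell by 0.49 in JIMT1 (SE 0.11, adjusted p = 0.0021). The immunophilin FKBP4 had log2 fold changes of -0.10 and -0.15 that did not pass.

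Among the cytosolic J proteins, which deliver clients to HSP70, DNAJB1 fell in both lines. DNAJB1 (HSP40) read 10.36, 10.36 and 10.29 with the combination, 10.53, 10.47 and 10.58 with BYL719, 10.78, 10.64 and 10.68 with GSK2334470 and 10.64, 10.75 and 10.79 with DMSO in HCC1954. In JIMT1 DNAJB1 had 10.40, 10.49 and 10.49 with the combination, 10.63, 10.56 and 10.57 with BYL719, 10.65, 10.58 and 10.65 with GSK2334470 and 10.87, 10.75 and 10.83 with DMSO. The combination was below every other group in both lines, and BYL719 lay between it and DMSO. DNAJB1 fell by 0.39 in HCC1954 (SE 0.07, adjusted p = 0.00036 from limma) and by 0.36 in JIMT1 (SE 0.07, adjusted p = 0.00063). DNAJA1, which serves HSC70, had log2 intensities of 12.22, 12.34 and 12.48 with the combination, 12.68, 12.62 and 12.63 with BYL719, 12.58, 12.54 and 12.57 with GSK2334470 and 12.88, 12.97 and 12.80 with DMSO in HCC1954. In JIMT1 DNAJA1 had 13.35, 13.15 and 13.36 with the combination, 13.27, 13.46 and 13.50 with BYL719, 13.47, 13.42 and 13.42 with GSK2334470 and 13.44, 13.53 and 13.54 with DMSO. In HCC1954 all treated arrays were below DMSO, and DNAJA1 fell by 0.54 with the combination (SE 0.08, adjusted p = 9.9e-05). In JIMT1 its difference was -0.22 (adjusted p = 0.068), and the difference between the lines did not pass the test (-0.32, SE 0.12, adjusted p = 0.13).

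DNAJB6, which keeps aggregation-prone proteins soluble, went the other way in HCC1954, with 10.88, 10.82 and 10.70 with the combination, 10.68, 10.72 and 10.65 with BYL719, 10.79, 10.73 and 10.73 with GSK2334470 and 10.63, 10.47 and 10.43 with DMSO. In JIMT1 DNAJB6 had 11.43, 11.33 and 11.45 with the combination, 11.25, 11.25 and 11.29 with BYL719, 11.26, 11.28 and 11.32 with GSK2334470 and 11.23, 11.31 and 11.30 with DMSO. All treated arrays were above DMSO in HCC1954, and only those of the combination were in JIMT1. DNAJB6 rose by 0.30 in HCC1954 (SE 0.07, adjusted p = 0.0053 from limma), with 0.13 in JIMT1 (adjusted p = 0.21). Its other probe gave 0.08 in HCC1954 and -0.30 in JIMT1, so the probes disagreed, and with median scaling the HCC1954 value of 0.14 did not pass. DNAJB4 passed in neither line, with differences of 0.35 (adjusted p = 0.11) in HCC1954 and -0.38 (adjusted p = 0.061) in JIMT1. Its other probe gave 0.75 in HCC1954, which passed among all kept probes (adjusted p = 0.025), and -0.37 in JIMT1 (adjusted p = 0.25).

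HSPB8, a small heat shock protein that acts with BAG3 in selective autophagy, had log2 intensities of 7.10, 7.53 and 7.29 with the combination, 7.88, 7.73 and 7.52 with BYL719, 7.62, 7.53 and 7.25 with GSK2334470 and 7.97, 7.74 and 7.94 with DMSO in HCC1954. In JIMT1 HSPB8 had 10.86, 10.77 and 10.90 with the combination, 11.08, 10.93 and 10.99 with BYL719, 10.88, 10.85 and 10.76 with GSK2334470 and 11.09, 11.09 and 11.08 with DMSO. In both lines combination and GSK2334470 arrays were below DMSO. HSPB8 fell by 0.58 in HCC1954 (SE 0.11, adjusted p = 0.0011 from limma), the largest fall among the members there, with -0.25 in JIMT1 (adjusted p = 0.13). HSPB1 (HSP27) and BAG3 had log2 fold changes of -0.02 to 0.13 that did not pass, as did the brightest probes of the mitochondrial HSPA9, HSPD1 and HSPE1, at -0.28 to 0.05. The other HSPE1 probe, detected on all 24 arrays, gave 0.01 in HCC1954 and -1.03 in JIMT1 without passing (adjusted p = 0.12 from limma). Dimmer HSPD1 probes gave 0.00 and -0.43 in JIMT1, which did not pass. HSF1, the regulator of the heat shock genes, was dim, at 5.54, 5.40 and 5.39 with the combination, 5.51, 5.27 and 4.69 with BYL719, 5.12, 5.07 and 5.57 with GSK2334470 and 5.65, 5.33 and 4.65 with DMSO in HCC1954, where it was detected on 3 combination, 2 BYL719, 1 GSK2334470 and 1 DMSO array. In JIMT1 HSF1 was detected on every array and had 5.67, 6.08 and 6.17 with the combination, 6.71, 5.89 and 5.90 with BYL719, 6.10, 6.49 and 5.75 with GSK2334470 and 6.26, 6.18 and 6.56 with DMSO. Its differences, 0.23 in HCC1954 and -0.36 in JIMT1, had an SE of 0.26 and did not pass.

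Set against their promoters, the 7 genes with an ER stress element gave 0 calls in HCC1954 and 1 in JIMT1, the fall of XBP1, and the 2 measured genes with ERSE-II gave 0 in either line (limma), where 15.3% and 21.3% of all genes passed. Counts over so few genes are a description. Of the 7 measured genes with the heat shock element, 1 rose (DNAJB6, whose probes disagreed) and 3 fell (CHORDC1, DNAJA1 and HSPA8) in HCC1954. There 6.96% of all genes rose and 8.3% fell. In JIMT1 2 fell (CHORDC1 and HSPA8), where 8.84% of all genes fell. HSP90AA1, HSP90AB1 and HSPD1 carried the heat shock element with no call in either line. Of the 2 genes with the cyclic AMP response element, PPP1R15A rose in both lines and HSP90AB1 had no call. HSP90AA1, with the FOXO letters, and HYOU1, with TGACGTGG, had no call either.

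**Figure D4:**
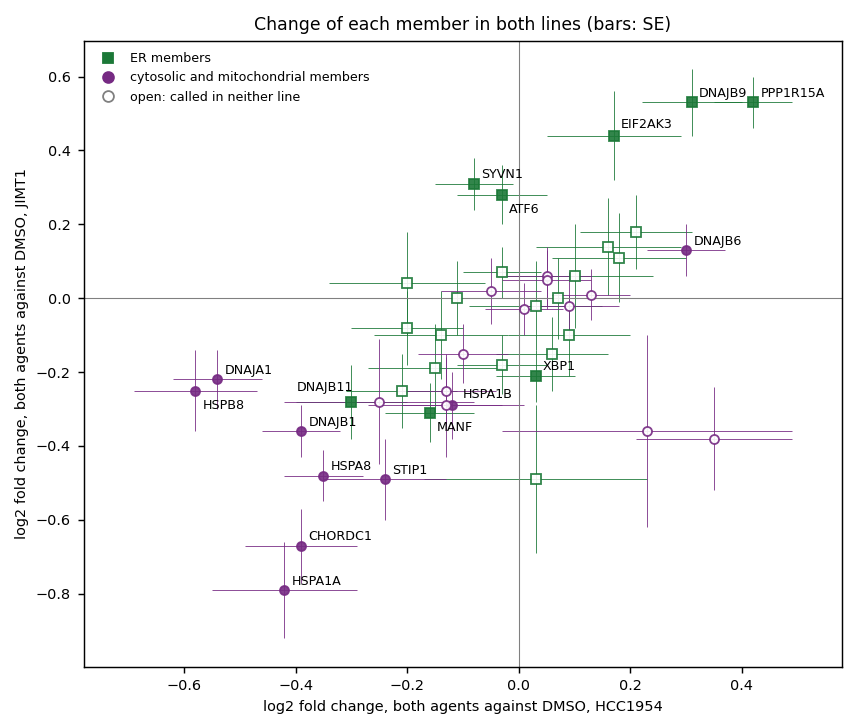
Log2 fold change of each measured member under both agents against DMSO in HCC1954 (x axis) and in JIMT1 (y axis), with SE bars, ER genes as squares and cytosolic and mitochondrial genes as circles, filled where the adjusted p was under 0.05 in at least 1 line. PPP1R15A (0.42 and 0.53) and DNAJB9 (0.31 and 0.53) lie at the upper right, and HSPA1A (-0.42 and -0.79), CHORDC1 (-0.39 and -0.67) and HSPA8 (-0.35 and -0.48) at the lower left.

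Each agent alone moved few of these genes. Under BYL719 alone, 1 of the 46 genes passed in HCC1954, where 3.86% of all genes passed and 1.89% were lower, and 3 passed in JIMT1, where 11.4% passed and 5.15% were lower, all of them cytosolic and all lower. CHORDC1 fell by 0.41 in HCC1954 (SE 0.10, adjusted p = 0.023 from limma) and by 0.43 in JIMT1 (SE 0.10, adjusted p = 0.0071). HSPA8 had a difference of -0.21 in HCC1954 (adjusted p = 0.12), where its BYL719 arrays were below DMSO, and fell by 0.50 in JIMT1 (SE 0.07, adjusted p = 1e-04), with its other probe at -0.52. DNAJB1 differed by -0.20 in HCC1954 (adjusted p = 0.12) and fell by 0.23 in JIMT1 (SE 0.07, adjusted p = 0.031). In JIMT1 20 of the 21 cytosolic and mitochondrial genes had a value below 0 under BYL719, with a median of -0.10. So did 19 of the 25 ER genes (median -0.04) and 6069 of all 12109 genes (median 0.00). Of the ER genes, 0 of 25 passed in either line by limma, with 1 in HCC1954 and 5 in JIMT1 at an unadjusted p under 0.05. That level was reached by 2008 and 2808 of all 12109 genes. The CHORDC1 call in HCC1954 was lost without BYL719 replicate 1 (-0.39) or 2 (-0.40) or DMSO replicate 1 (-0.36) or 2 (-0.36), and that of DNAJB1 in JIMT1 without any 1 array of those groups but DMSO replicate 2 (-0.25 to -0.20).

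Under GSK2334470 alone, 0 of the 46 genes passed by limma in either line, where 0.00826% of all genes passed in HCC1954 and 1.28% in JIMT1. At an unadjusted p under 0.05 there were 8 members in HCC1954 and 9 in JIMT1, against 1675 and 1487 of all 12109 genes. The methods' t-test with Benjamini-Hochberg adjustment also called 0 members in each line, and 1 and 4 of all genes. HSPA8 came nearest, at -0.29 in JIMT1 (SE 0.07, adjusted p = 0.051), with all GSK2334470 arrays below DMSO. HSPA1A had -0.37 (adjusted p = 0.21) in HCC1954 and -0.36 (adjusted p = 0.25) in JIMT1, again with no overlap with DMSO, and HSPB8 had -0.41 in HCC1954 (adjusted p = 0.13). In JIMT1 20 of the 21 cytosolic and mitochondrial genes lay below 0, with a median of -0.12. So did 17 of the 25 ER genes (median -0.04) and 6181 of all 12109 genes (median 0.00).

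Whether the second agent added to BYL719 was asked by setting the combination against BYL719 alone. PPP1R15A was the only member that passed in HCC1954 (2.73% of all genes passed, 1.41% higher) and in JIMT1 (1.18% passed, 0.76% higher). At an unadjusted p under 0.05 there were 6 and 11 members, against 1733 and 1757 of all 12109 genes. PPP1R15A was higher with the combination than with BYL719 by 0.33 in HCC1954 (SE 0.07, adjusted p = 0.016 from limma) and by 0.43 in JIMT1 (SE 0.07, adjusted p = 0.0054). DNAJB9 was higher by 0.31 (adjusted p = 0.095) and 0.38 (adjusted p = 0.052), with no overlap in either line. CHORDC1 in HCC1954 differed by 0.02 between combination and BYL719 (95% interval -0.18 to 0.23), and HSPA8 in JIMT1 by 0.01 (-0.14 to 0.16). DNAJA1 in HCC1954 (-0.30, adjusted p = 0.055) and STIP1 in JIMT1 (-0.36, adjusted p = 0.12) were lower with the combination without passing. The PPP1R15A call in HCC1954 was lost without combination replicate 2 (0.32) or 3 (0.29) or BYL719 replicate 3 (0.28).

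A test of non-additivity, the combination minus the sum of the effects of the single agents, called 0 members in each line by limma (0.033% of all genes in each line). At an unadjusted p under 0.05 there were 5 members in HCC1954 and 6 in JIMT1, against 959 and 996 of all 12109 genes. DNAJB9 in JIMT1 had the smallest p of these members, an excess of 0.56 over the sum (SE 0.13, unadjusted p = 0.00046, adjusted p = 0.23).

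The effect of the combination differed between the lines for 2 of the 46 members (4.48% of all genes, 1.43% with a higher and 3.05% with a lower value in HCC1954). SYVN1 had a difference of effects, HCC1954 minus JIMT1, of -0.39 (SE 0.11, adjusted p = 0.038 from limma). DNAJB4, a J protein of HSP70, had a difference of 0.73 (SE 0.20, adjusted p = 0.042). Its log2 intensity was 7.42, 7.59 and 7.51 with the combination, 7.43, 7.22 and 7.31 with BYL719, 6.74, 6.59 and 6.93 with GSK2334470 and 7.08, 7.12 and 7.28 with DMSO in HCC1954. In JIMT1 DNAJB4 had 8.48, 8.42 and 7.88 with the combination, 8.35, 8.54 and 8.27 with BYL719, 8.50, 8.57 and 8.35 with GSK2334470 and 8.38, 8.87 and 8.69 with DMSO. The combination was above DMSO in HCC1954 and overlapped it in JIMT1, where replicate 3 was low. Both differences sat near the threshold, being lost on leaving out 10 and 8 of the 12 arrays involved (-0.41 to -0.36 for SYVN1, and 0.54 for DNAJB4 without JIMT1 combination replicate 3 to 0.77). For BYL719 alone, 0 members differed between the lines by limma (1.32% of all genes), with 2 at an unadjusted p under 0.05, against 1439 of all 12109 genes.

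The untreated state of the folding genes differed far more between the lines than any treatment changed it. With DMSO, 38 of the 46 genes differed between HCC1954 and JIMT1, 13 higher and 25 lower in HCC1954, where 69.7% of all genes differed (34.4% higher and 35.4% lower). The cytosolic and mitochondrial genes were mostly lower in HCC1954, with 16 of 21 lower, 2 higher and a median log2 difference of -0.63, while the ER genes were split, with 11 of 25 higher, 9 lower and a median of 0.11. The median of all genes was 0.00.

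HSPB8 had the largest difference, at 7.97, 7.74 and 7.94 in HCC1954 and 11.09, 11.09 and 11.08 in JIMT1, a log2 difference of -3.21 (9.24-fold, adjusted p = 4.7e-16 from limma). DNAJB4 (-1.48), CHORDC1 (-1.02), BAG3 (-0.90), DNAJB6 (-0.77), HSPD1, the mitochondrial HSP60 (-0.74), HSPA1A (-0.73) and HSPA8 (-0.59) were also lower in HCC1954. HSF1 differed by -1.12, a value that is uncertain because it was above background on 1 of 3 HCC1954 DMSO arrays. HSPB1 (0.71) and HSP90AA1 (0.37) were the 2 cytosolic genes that were higher in HCC1954.

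Among ER genes, XBP1 was higher in HCC1954 by 1.82 (adjusted p = 1.7e-15), followed by SEC24D (1.30), ATF6 (1.00), SDF2L1 (0.90), PPP1R15A (0.84), EIF2AK3 (0.67) and SYVN1 (0.49). The chaperones CANX (-1.72, adjusted p = 6.9e-12) and HSPA5 (-1.15, adjusted p = 1e-09), EDEM1 (-1.32), CRELD2 (-0.81), HYOU1 (-0.59) and PDIA6 (-0.54) were lower there. Thus the 2 measured sensors and XBP1 were higher in HCC1954 while BiP was lower. DNAJB9, DERL1, DERL2, SELENOS and PPP1R15B of the ER, and HSPA4, FKBP4 and DNAJB1 of the cytosol, did not pass. Of the 13 genes that were higher in HCC1954, 12 had no overlap between the lines, the exception being CALR (0.32), and the 25 that were lower had none. Such separation was common, with 4223 of all 12109 genes wholly above and 4394 wholly below in HCC1954.

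**Figure D5:**
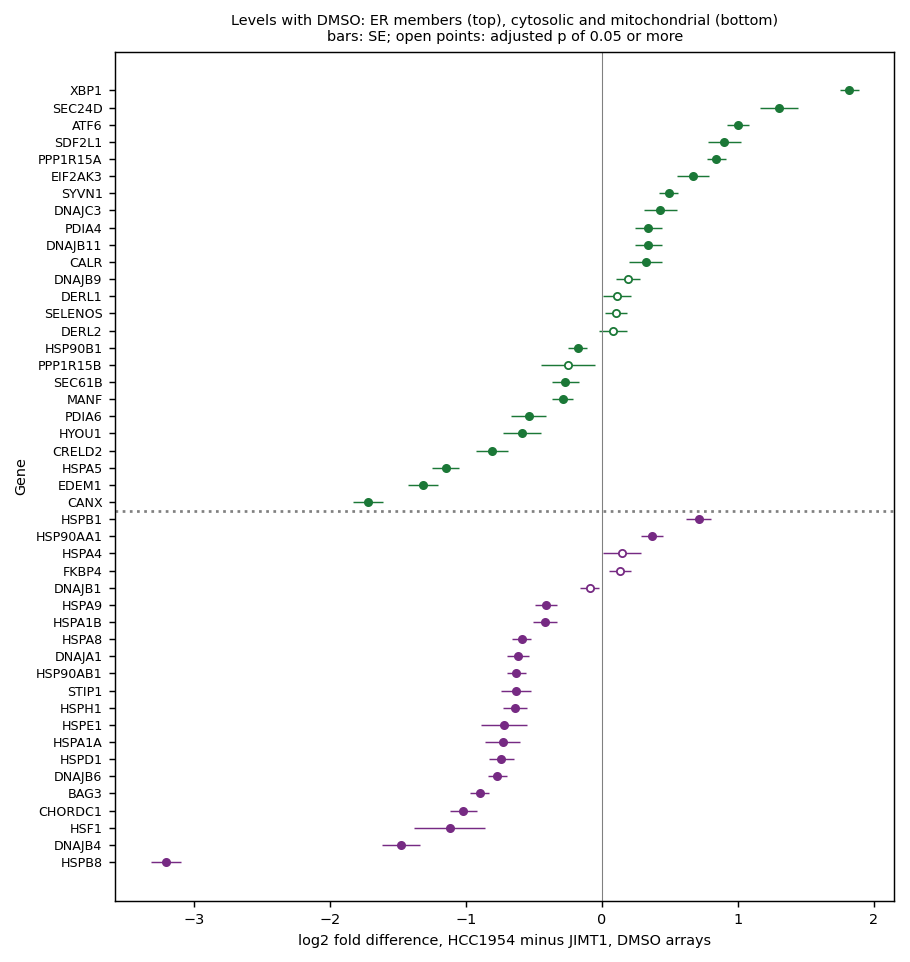
Log2 difference between HCC1954 and JIMT1 on DMSO arrays (3 per line) for the 25 ER genes at the top and the 21 cytosolic and mitochondrial genes at the bottom, with SE bars, filled points for an adjusted p under 0.05 and values above 0 for genes that were higher in HCC1954. XBP1 (1.82) and HSPB8 (-3.21) are the extremes, and the cytosolic genes lie mostly left of 0.

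Genes near these in the same pathways, from lists that are not part of the 51, were measured in the same fit. Of 15 genes of the ATF4 and CHOP branch, 3 rose and 4 fell under the combination in HCC1954 (46.7%, where 15.3% of all genes passed), and 1 rose and 3 fell in JIMT1 (26.7%, where 21.3% passed), with medians of 0.05 and -0.11. ATF4 itself had 0.14 (adjusted p = 0.3) in HCC1954 and rose in JIMT1 (0.28, adjusted p = 0.02). DDIT3, which encodes CHOP, had 0.31 (adjusted p = 0.084) in HCC1954 and -0.19 (adjusted p = 0.27) in JIMT1. In HCC1954 CHAC1, a glutathione-degrading enzyme detected on no DMSO array, was at least 1.87-fold higher (adjusted p = 7e-04), and NUPR1 (0.76, adjusted p = 0.0096) and ATF3 (0.71, adjusted p = 0.0015), both stress-induced nuclear factors, rose, while TRIB3 (-0.69, adjusted p = 1.5e-05), DDIT4 (-0.58, adjusted p = 9.8e-05) and STC2 (-0.49, adjusted p = 0.0033) fell. STC2 (-0.64, adjusted p = 0.00021), CEBPB (-0.39, adjusted p = 0.00047) and DDIT4 (-0.30, adjusted p = 0.018) fell in JIMT1. The bound for CHAC1 sets its mean of 6.27 with the combination against the lowest detected signal of the DMSO arrays, a log2 mean of 5.37.

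Of 40 measured genes among 44 other ER folding and translocation genes, 1 passed in HCC1954 (2.5%, against 15.3% of all genes), the lectin OS9 of ER-associated degradation, which rose by 0.40 (adjusted p = 0.0047). In JIMT1 5 rose and 3 fell (20%, against 21.3% of all genes), led by CREB3L2 (0.45, adjusted p = 0.0029), WFS1 (0.37, adjusted p = 0.0018) and ERLEC1 (0.35, adjusted p = 0.0092) upward and EDEM3 (-0.43, adjusted p = 0.046), SPCS3 (-0.39, adjusted p = 0.023) and OSTC (-0.26, adjusted p = 0.049) downward, at medians of 0.03 and 0.04 over the list in HCC1954 and JIMT1. Of 27 measured genes among 30 other cytosolic chaperones and co-chaperones, a list that also holds the ER collagen chaperone SERPINH1, 1 rose and 4 fell in HCC1954 (18.5%), and 1 rose and 6 fell in JIMT1 (25.9%), where 15.3% and 21.3% of all genes passed, with medians of -0.07 and -0.08. The HSP70 exchange factor BAG2 fell in both, by 0.55 (adjusted p = 0.013) in HCC1954 and 0.85 (adjusted p = 0.00028) in JIMT1. HSPBP1 (0.47, adjusted p = 0.039) rose and HSPA14 (-0.33, adjusted p = 0.043) and TTC4 (-0.29, adjusted p = 0.0037) fell in HCC1954. CDC37, which brings kinases to HSP90, rose in JIMT1 (0.28, adjusted p = 0.042), where HSPA6 (-0.98, adjusted p = 0.0072), detected on 1 of 3 combination arrays and 3 of 3 DMSO arrays, and HSPA4L (-0.57, adjusted p = 0.014) fell.

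Of the 14 TRiC and prefoldin genes, 1 passed in each line (7.14%, below the 15.3% and 21.3% of all genes), CCT2 in HCC1954 (-0.33, adjusted p = 0.022) and PFDN2 in JIMT1 (-0.80, adjusted p = 0.028). Of 9 other mitochondrial chaperones and proteases, 44.4% passed in HCC1954 and 33.3% in JIMT1, against 15.3% and 21.3% of all genes. The unfoldase CLPX rose in HCC1954 (0.59, adjusted p = 6e-05) and JIMT1 (0.51, adjusted p = 0.00024), and GRPEL1, the exchange factor of mitochondrial HSP70, fell in both (-0.69, adjusted p = 5.1e-05, and -0.85, adjusted p = 3e-06). DNAJA3 (-0.41, adjusted p = 0.0018) and GRPEL2 (-0.34, adjusted p = 0.0083) fell in HCC1954, and HTRA2 (-0.34, adjusted p = 0.034) fell in JIMT1. The genes whose 8 group means followed those of HSPA5 most closely were PBK, B4GALNT1 and GRK5 (Pearson r = 0.999 each, across groups), and those closest to HSPA8 were TP53RK (0.993), TRMT6 (0.986) and POFUT2 (0.986), a description in which the gap between the lines weighs most.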

How the data were processed

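Total RNA was extracted with an RNeasy kit, made into biotinylated cRNA and hybridized to Illumina HT-12 arrays. The authors deposited mean bead intensity per probe and array, not normalized, on a linear scale. They also deposited a detection p-value, whose steps of 1 in 770 match 770 negative controls, and the number of beads per probe, a count that was used only to check the arrays. Processed intensities, deposited in 24 columns with no stated normalization, were used as an alternative, and the bead standard errors, in 24 columns, stayed unused. The submitters' processing notes name GenomeStudio, with no version given in the sources used here.

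Log2 values were made from the deposited intensities in R 4.3.3 with limma 3.58.1 by neqc, with background from the detection p-values, an offset of 16 and quantile normalization over 24 arrays, so that fold changes of dim genes are understated. A probe was kept if it was detected on every array of 1 or more groups (21256 of 47323, 16345 of them with 1 gene symbol in GEO's platform annotation). The brightest probe stood for each of 12109 genes. One model of 8 group means (16 residual degrees of freedom) was fitted with lmFit and eBayes, p-values were adjusted by Benjamini-Hochberg over all genes, and the threshold was 0.05. The procedure was also run on simulated arrays with independent noise and fewer changed genes than were called under the combination. That run therefore does not test the calls given here. The number of arrays limits the precision. Replicates are described as biological by the study, and p-values measure the spread between these arrays only.

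The members and all lists were chosen with earlier results of these data known. Members that passed in any comparison with DMSO, and 7 fixed genes (HSPA5, HSP90B1, XBP1, HSPA1A, HSPA8, HSP90AA1 and HSF1), were described array by array, and from each other list up to 3 rises and 3 falls per line under the combination, with ATF4 and DDIT3. DNAJB4 was added for its line difference. Alternatives were background correction, scaling, the authors' values, the filter, the choice of probe, the arrays fitted, a replicate block, a plain t-test, and leaving out each array. The study's figure legends name Student's t test, and the Benjamini-Hochberg step was added here. Promoters came from RefSeq (GRCh38.p14).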

Additional observations from a re-analysis of the deposited data

Results flagged for a closer look

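SYVN1 and DNAJB4 were singled out because the difference between their combination effects in the 2 lines passed the threshold, as it did for 4.48% of all genes. The call was lost in 16 of 21 alternatives for SYVN1 and in 12 of 21 for DNAJB4. For both it was lost when every kept probe was tested. SYVN1, the ubiquitin ligase HRD1, differed by -0.39 between the effects in HCC1954 (-0.08) and in JIMT1 (0.31), with an adjusted p of 0.038 from limma. DNAJB4 differed by 0.73 between the effects in HCC1954 (0.35) and in JIMT1 (-0.38), with an adjusted p of 0.042, and its other probe gave 0.75, which passed among all kept probes (adjusted p = 0.025), and -0.37. For SYVN1, the mean of its probes gave a line difference of -0.18 that did not pass.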

How the results depend on the processing

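The counts of called members changed most with scaling and with how many arrays set the spread. Calls over all genes are given beside them for the t-test only, so under the other settings the members cannot be set against all genes. Under the combination, median scaling called 3 members in HCC1954 (DNAJA1, DNAJB1 and HSPB8) and 4 in JIMT1 (CHORDC1, HSPA1A, HSPA8 and PPP1R15A), against 10 and 14. The share of the called members that were higher was then 0% in HCC1954 and 25% in JIMT1, against 30% and 35.7%. That scaling moved the median of all genes by up to 0.15 and gave 0 and 1 calls for BYL719 in HCC1954 and JIMT1, 0 and 0 for combination against BYL719 and 0 for the line difference. With only the arrays of a contrast in the fit, there were 4 for the combination in HCC1954, 0 and 1 for BYL719, 0 and 0 for combination against BYL719 and 0 for the line difference. The plain t-test after Benjamini-Hochberg adjustment gave 2 and 8 for the combination, where it called 388 and 1251 of all 12109 genes. It gave 0 and 0 for BYL719 (0 and 252 of all genes), and 0 and 0 for combination against BYL719 (14 and 0 of all genes). With the mean of a gene's probes, there were 0 calls for BYL719 in HCC1954, 1 for GSK2334470 in JIMT1 (HSPA8), 2 for combination against BYL719 in JIMT1 (DNAJB9 and PPP1R15A) and 1 for the line difference. HSPA8 was also the 1 call for GSK2334470 in JIMT1 with the authors' processed values and with genes detected on all 24 arrays, where combination against BYL719 gave 3 and 2. With the arrays of 1 line, BYL719 and combination against BYL719 gave 0 each in HCC1954, and with no filter, or with every kept probe tested, the line difference gave 0 each. The cause of these shifts was not tested. A count with no share of all genes beside it is a description and no result about the members. Leaving out 1 array gave 6 (without HCC1954 DMSO replicate 1) to 11 calls for the combination in HCC1954 and 10 to 15 in JIMT1, 0 to 1 and 2 to 3 for BYL719, 0 for GSK2334470 in each line, 1 in HCC1954 and 1 to 2 in JIMT1 for combination against BYL719, 0 to 2 for the line difference and 36 to 37 for the lines under DMSO. Over all genes, same-numbered arrays showed little common deviation (36 correlations from -0.21 to 0.23). The 2 over 0.1 were between combination and GSK2334470 in HCC1954 (0.18 and 0.23). Such correlations cannot exclude that the numbers pair the arrays. With the replicate block there were 10 and 14 calls for the combination and 1 for the line difference. Under the combination in JIMT1, XBP1 (-0.21) and HSPA1B (-0.29) were lost and DNAJB4 and HSPH1 gained. DNAJB1 (-0.23) was lost for BYL719 in JIMT1, and SYVN1 (-0.39) between lines. Over 32 results for single members and 552 alternatives, 397 kept direction and threshold, 155 kept direction only and 0 changed sign. DNAJB1 in HCC1954 and PPP1R15A, HSPA8 and CHORDC1 in JIMT1, all under the combination, passed under every alternative run.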
